A study of Mus musculus with 8 samples.

Results

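The RNA levels of 10 genes at the transcriptional end of the Hippo pathway were followed in mouse fibroblasts that responded to serum with or without cordycepin. The genes were the 4 TEAD transcription factors (Tead1, Tead2, Tead3 and Tead4), their coactivators Yap1 and Wwtr1 (which encodes TAZ), and 4 output genes that are widely read as reporters of YAP and TAZ activity (Ctgf, Cyr61, Ankrd1 and Amotl2). They were chosen as members of the pathway, with no threshold on a measured value but with earlier results of these data known, and were found through the gene name that the array design gives each probe. The 10 genes, of 35715 gene names on the array, had 13 of its 55681 probes, with 3 probes for Tead1, 2 for Tead2 and 1 for each other gene.

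NIH3T3 cells are an immortalised fibroblast line from mouse embryos. In all groups the medium was changed to 0.5% newborn bovine serum for 24 h, after growth in 10%. One group of 3 arrays then received 20 µM cordycepin in DMSO and, 60 min later, serum for 30 min, which gave 90 min of cordycepin. The sample labels give 90 min, whereas a figure legend of the paper places the 30 min of serum after 90 min of cordycepin. A second group of 3 arrays received 0.1% DMSO and the same serum addition. The last group, of 2 arrays, was labelled as serum-starved cells without serum. The protocol names DMSO as the control, but the label of this group does not itself state it. No array held cells given cordycepin without serum, so the cordycepin effect could be measured only in cells that had also received serum. The series text calls the cordycepin and serum samples independent triplicates and does not say how the 2 samples without serum were separated, so p-values measure the spread between these samples.

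Cordycepin is 3′-deoxyadenosine, a nucleoside analogue whose triphosphate is known to end the chain in polyadenylation and so to inhibit it. The paper states that total pre-mRNA synthesis in intact cells is not ended by it, although transcription of specific mRNAs and of ribosomal RNAs is inhibited. In the Hippo pathway, a kinase cascade that ends in LATS phosphorylates YAP and TAZ and keeps them out of the nucleus. YAP and TAZ do not bind DNA themselves, and act through TEAD factors, which recognise the sequence CATTCC, which reads as GGAATG from the opposite strand. Serum is a textbook activator of YAP and TAZ in fibroblasts, mainly through lysophospholipids and the actin cytoskeleton, and the same serum also induces immediate early genes through other factors.

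Sequence upstream of the members was read from RefSeq promoters of build GRCm38.p6, each running from 250 bases before to 50 bases after an annotated start site. RefSeq entries for 7 of the 10 genes were matched, and Ctgf, Tead1 and Tead4 had none. The promoters of the 3 output genes are shown because their RNA was measured in the results and they are known target genes of YAP and TAZ. Capitals mark CATTCC or GGAATG, searched on both strands.
Cyr61 (listed as Ccn1), chr3:145649936-145650235, minus strand: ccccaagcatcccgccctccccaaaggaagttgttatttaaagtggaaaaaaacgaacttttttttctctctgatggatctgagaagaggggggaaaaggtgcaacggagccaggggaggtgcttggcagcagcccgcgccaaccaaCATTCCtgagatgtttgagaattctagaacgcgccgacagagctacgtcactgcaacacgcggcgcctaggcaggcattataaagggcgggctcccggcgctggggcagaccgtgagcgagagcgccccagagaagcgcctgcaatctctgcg
Ankrd1, chr19:36119795-36120094, minus strand: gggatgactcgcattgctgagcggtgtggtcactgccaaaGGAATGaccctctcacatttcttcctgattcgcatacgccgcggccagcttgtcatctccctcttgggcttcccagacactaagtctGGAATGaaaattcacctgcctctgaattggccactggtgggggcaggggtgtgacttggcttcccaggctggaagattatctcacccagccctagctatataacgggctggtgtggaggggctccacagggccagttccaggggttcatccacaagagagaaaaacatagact
Amotl2, chr9:102717554-102717853, plus strand: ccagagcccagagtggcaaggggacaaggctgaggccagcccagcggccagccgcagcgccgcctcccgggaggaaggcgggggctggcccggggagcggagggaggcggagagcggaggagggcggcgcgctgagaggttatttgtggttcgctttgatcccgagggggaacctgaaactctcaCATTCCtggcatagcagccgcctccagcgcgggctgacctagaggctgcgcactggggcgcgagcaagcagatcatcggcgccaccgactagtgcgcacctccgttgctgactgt
The Cyr61 promoter held 1 match, whose first base lay at −103 from the start site. The Ankrd1 promoter held 2 matches, at −210 and −123, and the Amotl2 promoter held 1, at −65. The genes of the factors themselves were searched in the same way. Yap1 held a match at −141, Wwtr1 at −170 and −136 in its 2 overlapping promoters (the same bases counted from different start sites), and Tead3 in 2 of its 3 promoters, while Tead2 held none. In all, 8 of 10 promoters from 6 of 7 genes held the motif, against 14.7% of the 32851 mouse promoters of this length. These genes were chosen as known parts of the pathway, and a match of letters is a description, not a site. TATAAA, searched on the strand of the gene alone, was found in 8.32% of all promoters and, among the members, at −25 in Cyr61. The CArG box, the motif of serum response factor, was searched only as CC, 6 bases of A or T, and GG. It was found in 1.63% of all promoters and in none of these 10 windows. Variants of the motif and sites outside the windows were not searched, and Ctgf had no window.

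The arrays read these transcripts with probes of 60 bases. Because cordycepin is known to act on polyadenylation, probes that lie over a polyadenylation signal were looked for. AATAAA, searched on the strand of the probe, was present in 2 of the 13 probes, and in 14.2% of 17907 tested probes for RefSeq mRNAs. The 30 bases around each match are shown with AATAAA in capitals.
Tead4 probe, bases 29 to 58: atccacatgttcAATAAAtatgcattggta
Tead2 probe, bases 31 to 60: tgtttgaaggagAATAAAgctatttttacc
Of these probes, the one for Tead4 changed with cordycepin in the values below, and no change was called for the one for Tead2.

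Values are log2 processed signals from which the 75th percentile of their own array was subtracted, so 0 is the level of a spot at that percentile. They compare a probe between groups, not one probe with another, and a shift common to most RNAs is lost in this scaling. In these bulk samples, fewer expressing cells and less RNA per cell cannot be told apart. The 75th percentile ranged from 350.5 to 802.2 signal units between arrays, 51.9 to 57.7% of spots were well above background, and no spot was saturated. Arrays of a group correlated at r between 0.992 and 0.995 across tested probes. All 13 probes were well above background on all 8 arrays, so none of the levels is only a bound. All 8 fibroblast markers were tested (Col1a1, Col1a2, Col3a1, Vim, Fn1, Thy1, Pdgfra and Pdgfrb) and none was called between groups with limma (at an unadjusted p under 0.05, 1 was lower with cordycepin against serum and none higher). Of the markers of other types, Ptprc, Epcam, Cdh1, Krt18, Cdh5 and Tie1 were not well above background in any whole group, while the epithelial markers Krt8 and Cldn4 (the latter above background on 2 arrays alone) and the endothelial markers Pecam1 and Kdr were measured and not called between groups (Pecam1 was lower by 0.37 and Krt8 higher by 0.32 with cordycepin against serum, adjusted p = 0.078 and 0.121). Cd68, a macrophage and lysosome marker, was nonetheless measured, and rose with cordycepin by 3.04 ± 0.21 (SE, limma adjusted p = 5.18e-05) against serum. Cd3e, the other blood cell marker tested of 4, differed by 0.13, and the part of these markers in the results below was not tested.

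The question of the first comparison was what cordycepin did to these RNAs in serum-treated cells. Tead4 and the output genes Ctgf, Cyr61 and Ankrd1 fell. Tead3 and Amotl2 were lower by less than the 2-fold minimum. Tead1, Tead2, Yap1 and Wwtr1 were not past the threshold. A probe was called at a limma adjusted p under 0.05 over all 30870 probes tested and a log2 change of at least 1 in size. By this rule 4 of the 10 genes were called lower and 0 higher, where 2.87% of all probes were called lower and 7.64% higher. Without the fold minimum, 6 of 10 were lower and 0 higher, against 7.36% and 12.0% of all probes. In 6 of 10 genes every cordycepin array lay below every serum array, which held for 13.4% of all probes. The median change of the 10 genes, by reference probe, was −0.74 and that of their 13 probes −0.09, beside 0.10 over all probes.

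**Figure D1:**
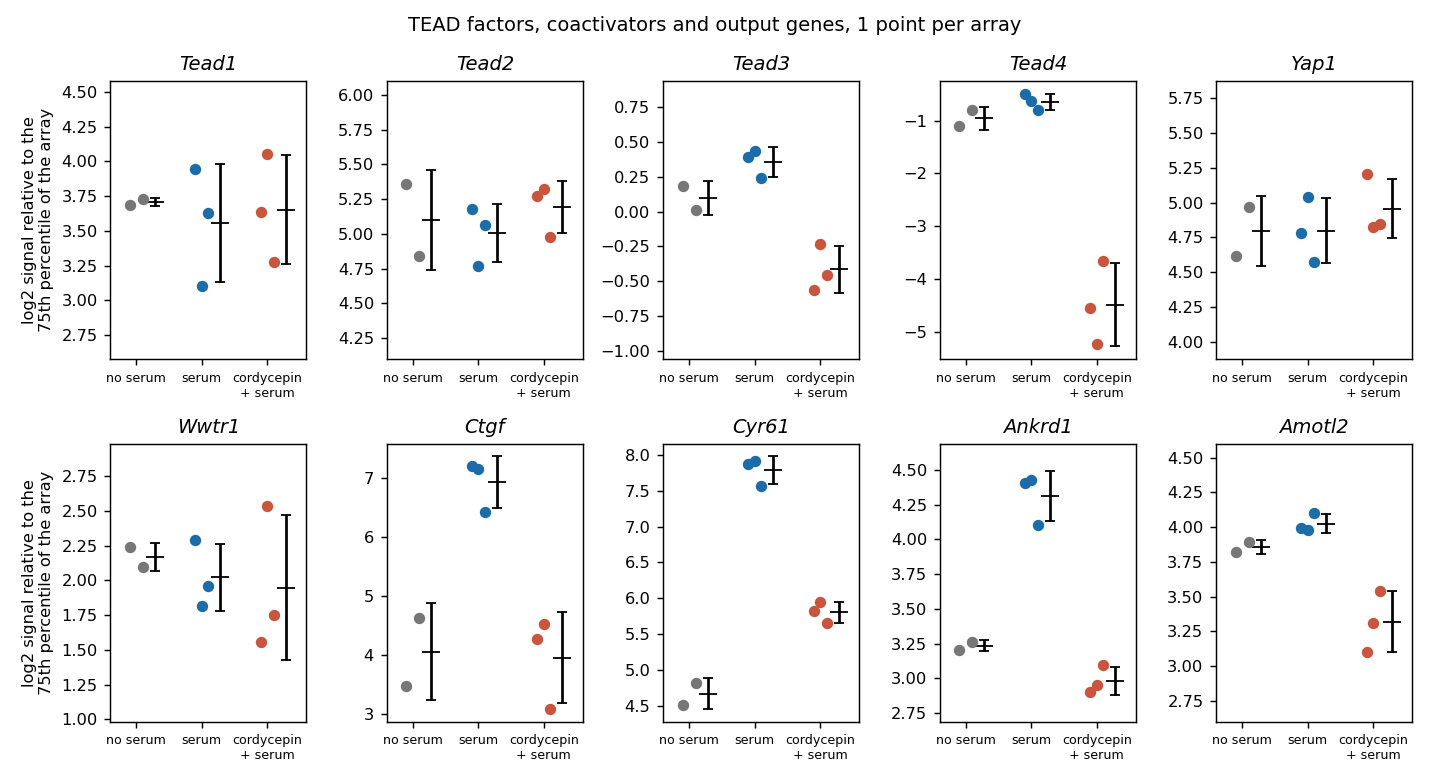
Log2 signal of each gene relative to the 75th percentile of its array (y axis, with its own range in each panel) in the 3 groups, with 1 point per array for the reference probe, which is the brightest probe of a gene, and the group mean with its SD beside the points. With cordycepin, Tead4 dropped to between −5.24 and −3.66 while all other arrays lay at −1.11 or above, and Ctgf, Cyr61 and Ankrd1 peaked in the serum arrays.

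Tead4 (mm9 chr6:128177161-128177220, minus strand) encodes the TEAD factor best known from the trophectoderm and from muscle precursors. Its 3 serum arrays read −0.49, −0.63 and −0.79, and the 2 arrays without serum read −1.11 and −0.81. The 3 arrays with cordycepin read −4.55, −5.24 and −3.66. The groups with and without cordycepin did not overlap, and the cordycepin arrays were also the most scattered, with an SD of 0.79 against 0.15 with serum. The fall was −3.84 ± 0.35 (SE, limma adjusted p = 0.000151), or 14.4-fold, with a 95% interval from −4.64 to −3.05.

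The size of the Tead4 fall depended on how background was handled. With cordycepin the processed signal of the probe was 14.9, 15.4 and 36.4 units, and the lowest signal of any spot well above background on the same arrays was 10.9, 12.5 and 11.8 units. In the other 5 arrays it was between 306.6 and 445.1 units. Tead4 thus remained detected, but on 2 arrays by a factor of only 1.37 and 1.23 over that lowest signal. Normexp background correction, which adds an offset of 50 units and so compresses dim signals, gave a fall of −2.03 with an adjusted p of 1.2e-05. Over all alternatives the change lay between −4.26 and −2.03, with adjusted p of at most 0.0014.

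Tead3 (chr17:28468622-28468681, minus strand), a TEAD factor with a broad tissue range, read 0.39, 0.44 and 0.24 with serum and −0.56, −0.23 and −0.45 with cordycepin. The groups did not overlap. The difference of −0.77 ± 0.13 (SE, limma adjusted p = 0.00324) was 1.71-fold, below the fold minimum. Centring each array on its median gave −1.07, which was called, and centring on spike-in probes gave −0.86 with an adjusted p of 0.623.

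Tead1 and Tead2, the other TEAD factors, did not pass the threshold on any probe. The reference probe of Tead1 (chr7:120049844-120049903, plus strand) read 3.95, 3.102 and 3.63 with serum and 3.63, 4.05 and 3.27 with cordycepin, so that the groups overlapped. Its difference was 0.10, with an interval from −0.49 to 0.68. Its other probes, the farther of which lies 7640 bases upstream and 1241 bases from the nearer, gave 0.00 and −0.09, and their groups overlapped too.

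Tead2 (chr7:52488930-52488989, plus strand) read 5.18, 4.77 and 5.06 with serum and 5.27, 5.32 and 4.98 with cordycepin. The difference was 0.19, with an interval from −0.23 to 0.60 and a limma adjusted p of 0.506. The second probe, 188 bases upstream, gave 0.24 with an adjusted p of 0.178, and its cordycepin arrays (3.76 to 3.94) all lay above its serum arrays (3.57 to 3.70). Higher values without overlap occurred in 26.5% of all probes.

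The coactivators did not pass the threshold either. Yap1 (chr9:7932025-7932084, minus strand) read 4.78, 5.04 and 4.57 with serum and 5.20, 4.82 and 4.85 with cordycepin. Its difference was 0.16, with an interval from −0.24 to 0.56, so a fall of 2-fold lay outside the interval. Wwtr1 (chr3:57259999-57260058, minus strand) read 2.29, 1.82 and 1.96 with serum and 1.55, 2.54 and 1.75 with cordycepin. Its groups overlapped, and its difference of −0.07 had an interval from −0.66 to 0.51. The arrays measure RNA, so the phosphorylation and location of YAP and TAZ were not observed.

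The output genes were lower in every case, 3 of 4 by enough to be called. Ctgf (chr10:24318281-24318340, plus strand) encodes a secreted matricellular protein of the CCN family and is the most used YAP reporter gene. It read 7.22, 7.16 and 6.42 with serum and 4.26, 4.52 and 3.08 with cordycepin. The groups lay well apart, and array 3 was the lowest in each. The fall was −2.98 ± 0.44 (SE, limma adjusted p = 0.00204), or 7.88-fold, with an interval from −4.00 to −1.96.

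Cyr61 (chr3:145310187-145310246, minus strand), a CCN protein close to Ctgf, read 7.88, 7.92 and 7.56 with serum and 5.82, 5.94 and 5.65 with cordycepin. Every cordycepin array lay far below the serum arrays. The fall was −1.99 ± 0.15 (limma adjusted p = 6.6e-05), or 3.96-fold.

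Ankrd1 (chr19:36186809-36186868, minus strand) encodes an ankyrin repeat protein of muscle and stressed cells. It read 4.41, 4.43 and 4.11 with serum and 2.90, 2.95 and 3.09 with cordycepin, again without overlap. The fall was −1.33 ± 0.12 (limma adjusted p = 0.000177), or 2.51-fold. Centring on spike-in probes gave −1.42 with an adjusted p of 0.0631, so the call was lost there with a similar size.

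Amotl2 (chr9:102635025-102635084, plus strand) encodes an angiomotin that binds YAP and is itself induced by it. It read 3.99, 3.98 and 4.10 with serum and 3.103, 3.31 and 3.54 with cordycepin. The difference of −0.71 ± 0.13 (limma adjusted p = 0.00624) was 1.63-fold and below the fold minimum. Centring on the median gave −1.01, and centring on spike-in probes gave −0.80 with an adjusted p of 0.740.

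The calls of Tead4, Ctgf, Cyr61 and Ankrd1 held whichever array was left out. The changes then lay between −4.26 and −3.47 for Tead4, −3.26 and −2.54 for Ctgf, −2.10 and −1.91 for Cyr61, and −1.43 and −1.27 for Ankrd1.

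**Figure D2:**
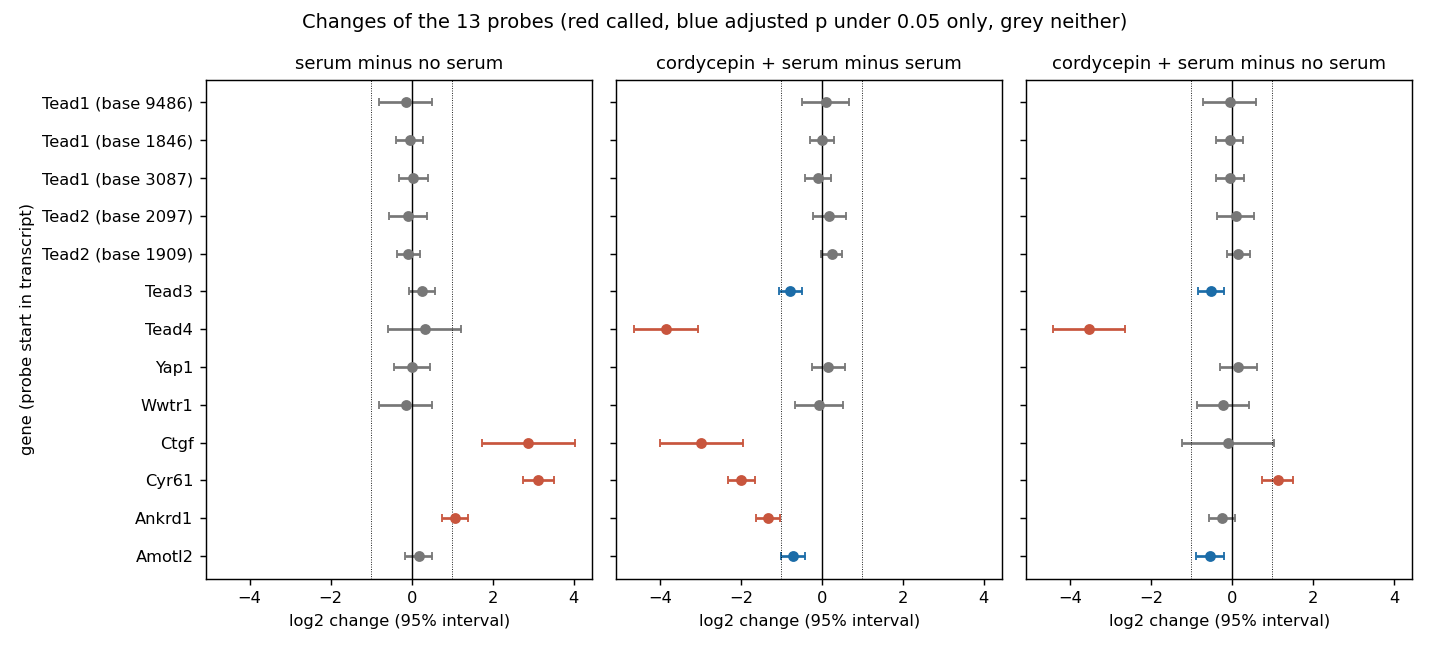
Log2 change of each of the 13 probes in the 3 comparisons (x axis, points with 95% intervals; rows are probes, with the first base in the transcript where a gene has several). Dotted lines mark the 2-fold minimum. Tead4 was called lower with cordycepin in both comparisons and was not called with serum, while Ctgf, Cyr61 and Ankrd1 rose with serum and fell with cordycepin.

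The second comparison asked which of these genes responded to serum in the first 30 min. Its serum arrays are those of the first comparison, so the values of both are given side by side and not as separate evidence. Ctgf, Cyr61 and Ankrd1 rose, and the TEAD factors and coactivators were not called. This gave 3 of 10 genes called higher and 0 lower, where 0.849% of all probes were called higher and 0.878% lower. In 6 of 10 genes every serum array lay above both arrays without serum, and in 0 below, against 9.71% and 13.6% of all probes. No further member passed without the fold minimum (1.14% of all probes higher and 1.13% lower). The median change of the 10 genes, by reference probe, was 0.21 and that of their 13 probes 0.04, beside −0.02 over all probes.

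Cyr61 read 4.51 and 4.82 without serum, against 7.56 to 7.92 with serum, and rose by 3.12 ± 0.17 (limma adjusted p = 0.000126), or 8.69-fold. It was called under every alternative tried, with a change between 2.83 and 3.27 and an adjusted p of at most 0.00351. Ctgf read 3.47 and 4.64 without serum, a gap of 1.17 between the 2 arrays, and every serum array lay above both. Its rise was 2.88 ± 0.50 (limma adjusted p = 0.0265), or 7.36-fold. That call was lost when cordycepin array 1, serum array 1, serum array 2 or either array without serum was left out, with a change of 2.30 to 3.46 and adjusted p of up to 0.179, and when no filter on dim probes was used (adjusted p = 0.105).

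Ankrd1 read 3.21 and 3.26 without serum, below the 4.11 to 4.43 with serum. It rose by 1.08 ± 0.14 (limma adjusted p = 0.00793), or 2.11-fold. The call was lost when no serum array 1 or no serum array 2 was left out (adjusted p = 0.066 and 0.0579), without the filter on dim probes (0.0559) and with centring on spike-in probes, where the change was 0.79 and the adjusted p 0.918. Of the output genes, Amotl2 was not past the threshold. It read 3.82 and 3.89 without serum, just below the serum arrays, and its change was 0.17 with an interval from −0.17 to 0.51.

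Among the factors, Tead4 differed between serum and no serum by 0.32 with an interval from −0.58 to 1.21, and Tead3 by 0.26 with an interval from −0.07 to 0.58. Both were higher in every serum array than in the 2 arrays without serum. Tead1 read 3.69 and 3.73 without serum and Tead2 read 5.36 and 4.84, within or around their serum arrays. Yap1 read 4.62 and 4.97 and Wwtr1 2.24 and 2.10, also overlapping the serum arrays.

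The last comparison set the cells with cordycepin and serum against those without serum. It shares the cordycepin arrays with the first comparison and the arrays without serum with the second, so its values are not separate evidence. Cyr61 was still above the level without serum, Ctgf and Ankrd1 were not past the threshold in either direction, and Tead4 was below it. By the same rule 1 of 10 genes was called lower (Tead4) and 1 higher (Cyr61), where 2.99% of all probes were called lower and 6.48% higher. Without the fold minimum 3 genes were lower and 1 higher, against 5.95% and 9.17% of all probes, and 4 were lower and 1 higher without overlap, against 16.0% and 29.2%.

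Tead4 was lower by −3.53 ± 0.39 (limma adjusted p = 0.000636), or 11.5-fold, and by −1.76 after normexp background correction. The order of its group means was thus serum, no serum and cordycepin, and the first 2 did not differ beyond the threshold. Cyr61 was higher by 1.13 ± 0.17 (adjusted p = 0.00263), or 2.19-fold, with all 3 cordycepin arrays (5.65 to 5.94) above the 2 without serum. It came below the fold minimum without no serum array 1 (0.98) or with centring on the median (0.93), and with centring on spike-in probes it was 0.76 with an adjusted p of 0.876. The 3 groups of Cyr61 were thus ordered serum, cordycepin with serum, and no serum.

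Ctgf overlapped between these groups, with 3.08 to 4.52 against 3.47 and 4.64, and its difference of −0.10 had a wide interval from −1.24 to 1.05. Ankrd1 was lower in all 3 cordycepin arrays than in the 2 without serum, by −0.25 with an interval from −0.57 to 0.07. Amotl2 and Tead3 were lower by 0.54 and 0.52 (limma adjusted p = 0.0437 and 0.0444), under the fold minimum. Leaving out any single array other than cordycepin array 3 took Amotl2 past 0.05 (up to 0.194), and leaving out any other than cordycepin array 2 did so for Tead3 (up to 0.247).

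The wider pathway was described with 4 lists of 47 genes in all, of which 42 were tested. Ptpn14 and Lats2 are shared between lists, and these totals leave out the repeats. With cordycepin against serum 3 of these were called lower and 0 higher, beside the same 2.87% and 7.64% of all probes. The 3 genes were all in the list of other YAP and TAZ target genes (16 of 18 tested, median −0.18). F3, which encodes tissue factor, read 7.31 ± 0.18 (SD, n = 3) with serum and 5.02 ± 0.10 (n = 3) with cordycepin, and fell by −2.29 ± 0.12 (SE, limma adjusted p = 1.79e-05). Nuak2, a kinase related to AMPK, fell by −2.31 ± 0.30 (SE, adjusted p = 0.00101). Gadd45b, a stress response gene, fell by −1.16 ± 0.14 (adjusted p = 0.000773), a call that was lost with centring on spike-in probes. Of the 16 genes, 11 were lower in sign. At a limma adjusted p under 0.05, 4 were lower (Ptpn14 below the fold minimum), beside 7.36% of all probes. At an unadjusted p under 0.05, 5 were lower and 0 higher. No share of all probes was counted at an unadjusted p, so counts by it, in any list, have no background beside them.

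Serum raised 2 of the same 42 genes and lowered 0, beside 0.849% of all probes called higher. F3 rose by 1.88 ± 0.14 (limma adjusted p = 0.000621) and Gadd45b by 1.09 ± 0.16 (adjusted p = 0.0142). The call of Gadd45b was lost without serum array 1 or no serum array 2. Nuak2 differed by 0.87 with an adjusted p of 0.383. Against the cells without serum, Nuak2 with cordycepin was lower by −1.44 ± 0.34 (adjusted p = 0.0234). That call was lost without cordycepin array 3 or no serum array 2. F3 and Gadd45b then had differences of −0.41 and −0.07 and were not past the threshold.

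The Hippo kinases and adaptors, which act upstream of YAP, gave no call, although quantile normalization and centring on the median each called 1 of them lower, Frmd6. All 17 were tested, and with cordycepin against serum their changes ran from −0.72 to 0.49 with a median of −0.08. None passed a limma adjusted p of 0.05, and 3 were lower and 0 higher at an unadjusted p under 0.05. The 2 brightest, the kinases Taok1 and Map4k4, differed by −0.07 and 0.19. Lats1 and Lats2, the kinases that phosphorylate YAP, differed by −0.11 and −0.15, and were named after their values were seen. With serum, 0 of 17 were past an unadjusted p of 0.05.

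The list of YAP and TEAD binding partners (8 of 10 tested) also gave 0 calls, but 5 genes were lower with cordycepin at a limma adjusted p under 0.05 and below the fold minimum, with a median of −0.59 for the list. Over all probes, 7.36% were lower and 12.0% higher by that rule. These 5 were named after their values were seen. They were Ajuba (−0.93, adjusted p = 0.0091), a LIM protein that inhibits LATS, Vgll4 (−0.77, 0.00442), which competes with YAP for TEAD, Ptpn14 (−0.66, 0.0106), a phosphatase that binds YAP, Vgll3 (−0.61, 0.036), a TEAD cofactor, and Amotl1 (−0.58, 0.0481), an angiomotin. Ptpn14 is the same gene that was counted lower among the other target genes. The 2 brightest genes of the list, Amot and Wtip, differed by 0.05 and −0.22. With serum against no serum none of the 8 passed an adjusted p of 0.05, and 3 were higher at an unadjusted p under 0.05.

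The other CCN genes, relatives of Ctgf and Cyr61, gave no call. Of the 4, 3 were tested, and with limma 0 passed an adjusted p of 0.05 or an unadjusted p under 0.05. Wisp1 and Wisp2, the brightest, differed by 0.09 and 0.07 with cordycepin and by −0.12 and −0.23 with serum. The other probe of Wisp1 gave −0.10 with cordycepin and 0.02 with serum.

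**Figure D3:**
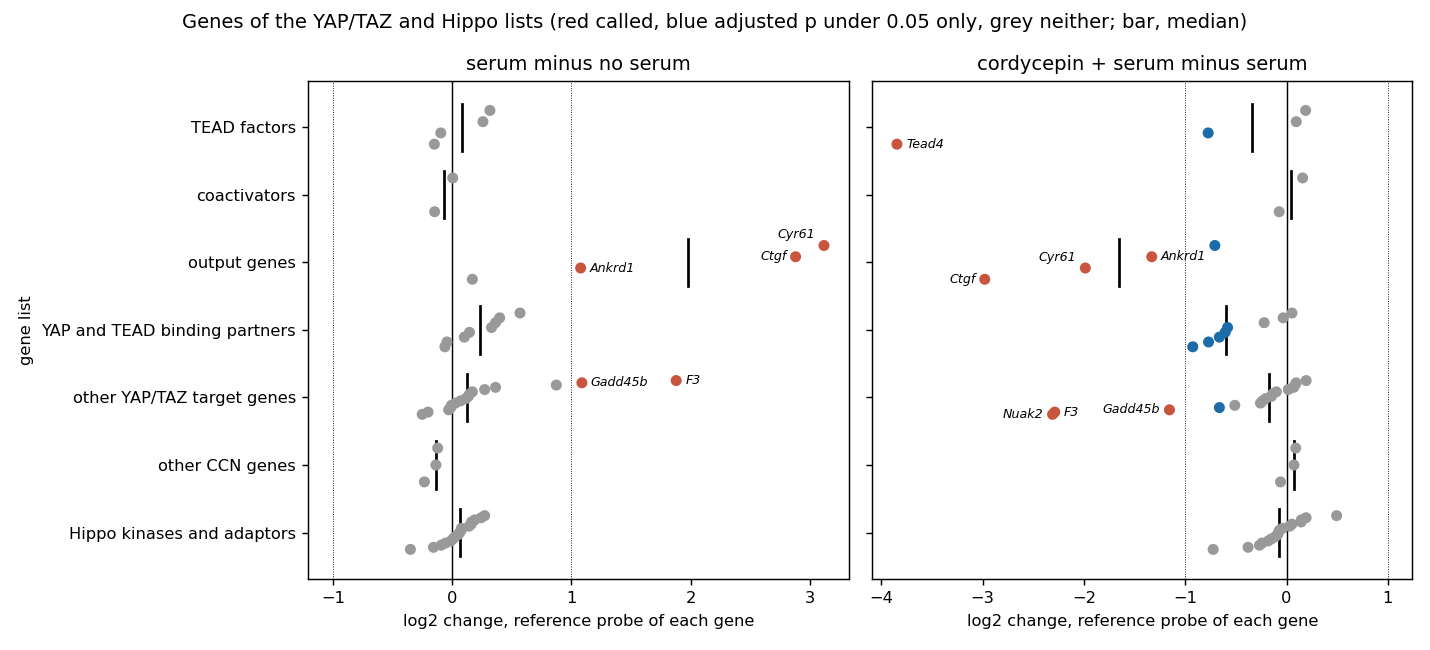
Log2 change (x axis) of the reference probe of each tested gene in 7 lists (rows), for serum against no serum and for cordycepin with serum against serum. Points are genes, black bars are list medians, and dotted lines mark the 2-fold minimum. The output genes had medians of 1.98 and −1.66, and the Hippo kinases and adaptors 0.06 and −0.08.

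Genes with the profile nearest to Cyr61, Ankrd1 and Tead4 were found by the root mean square difference over the 8 arrays, after each gene was centred on its own mean, among 12452 genes well above background on all arrays. The profile of Ankrd1 was nearest to Ppp1r15b (0.13), Lims2 (0.14) and Klf9 (0.14), and that of Cyr61 to Nppb (0.17), Gadd45g (0.18) and Ier2 (0.30). The nearest genes to Tead4 were Zbtb9 (0.50), Chac1 (0.57) and Zfp458 (0.62). The distance was not scaled for the size or scatter of a profile, so closeness was not compared between Cyr61, Ankrd1 and Tead4. Being chosen for this likeness, the nearest genes carry no test.

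**Figure D4:**
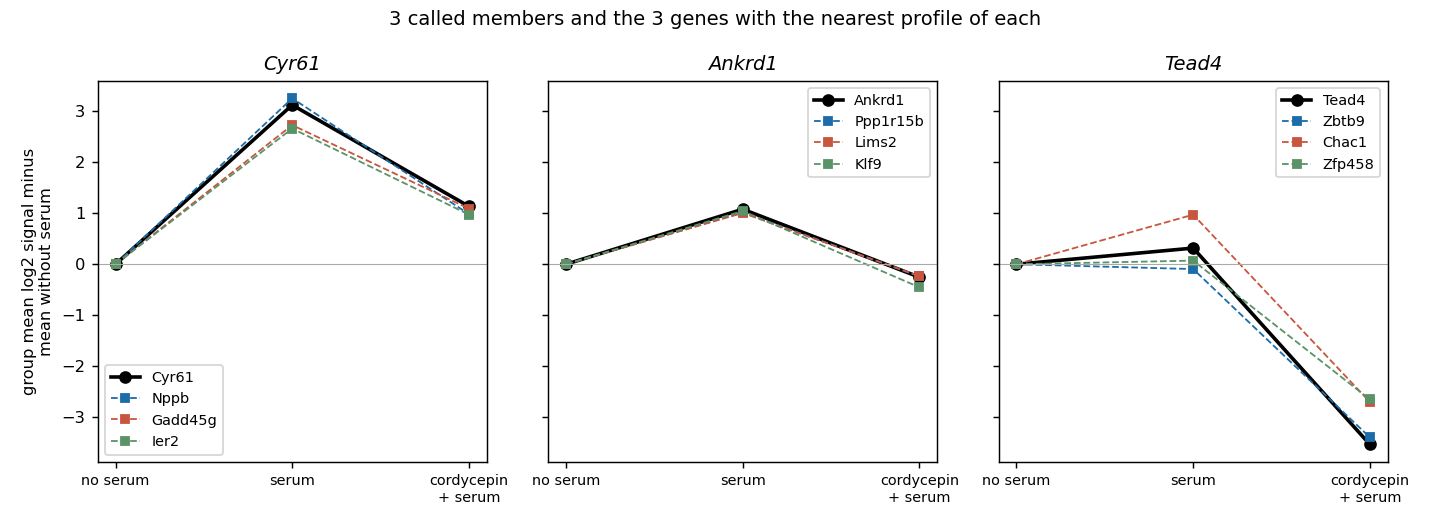
Group means of log2 signal minus the mean without serum (y axis) in the 3 groups (x axis) for Cyr61, Ankrd1 and Tead4 (black) and the 3 genes nearest to each (coloured). Cyr61 stayed above the level without serum at 1.13, Ankrd1 came to −0.25, and Tead4 went from 0.32 with serum to −3.53.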

How the data were processed

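RNA was measured on 8 one-colour Agilent arrays, deposited as scanner intensity per spot. Per the file headers, the authors made it with Feature Extraction 10.7.3.1, and the probe positions are those of mm9. The background step behind its processed signal was not checked. No normalisation is given in the sources used here. Processed signals were converted to log2 and scaled by subtracting the 75th percentile of each array, taken over its spots without the 3671 control spots of 62976. Outlier spots were dropped and replicate spots averaged. Tests were run on the 30870 probes that exceeded background clearly (well above background in the files) throughout at least 1 group. limma 3.58.1 in R 4.3.3 fitted 1 mean per group over all 8 arrays, without covariates. P-values are two-sided and adjusted by Benjamini-Hochberg over all tested probes. The reference probe of a gene had the highest mean. The fit was tested on simulated data. Spike-in probes were used as an alternative centring, whose p-values rest on a spread shared by all members. The number of arrays limits the precision.

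The members and lists were chosen with earlier results of these data known. All members were named, and of each list the called genes (at most 4 per direction and comparison) or, with none called, the 2 brightest. The genes nearest in profile to Ctgf are not reported here. All arrays lay on 1 slide in 1 scan, and the slide row was an alternative block. Alternatives were other background corrections, centrings, filters and thresholds, the replicate number as a block, the 2 groups compared alone, the mean over probes, and each array left out. Same-numbered arrays of different groups had deviations that correlated between −0.17 and 0.23, so the numbers were not taken as pairs.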

Additional observations from a re-analysis of the deposited data

How the results depend on the processing

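The 4 cordycepin calls among the members held under every alternative except centring on spike-in probes, which left 3. Over all single values, 331 kept their direction and side of the threshold, 17 reversed, 6 became called and 6 lost a call; with 1 array left out these were 217, 15, 0 and 8. No reversed value was a call. Number of members called: for serum against no serum 1 without a filter on dim probes; against no serum with cordycepin 1 with spike-in centring, 1 with median centring and 4 with no fold minimum. Number of pathway genes called: with cordycepin against serum 6 with median centring, 8 with no fold minimum, 4 with quantile (Frmd6 added) and 2 with spike-in (Gadd45b lost); for serum 0 with spike-in centring, 1 with no filter and 1 in the 2 groups alone; with cordycepin against no serum 2 with normexp, quantile, median centring, the replicate block or no fold minimum, and 0 with no filter. With 1 array left out, members called ranged from 4 to 4, 1 to 3 and 1 to 2 in the 3 comparisons, and pathway genes from 3 to 4, 1 to 2 and 0 to 2.

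Centring moved the median of all probes with cordycepin against serum from 0.10 to −0.20 (array median) and for serum from −0.02 to −0.30 (spike-in). Reversed values with cordycepin against serum were, with median centring, Tead1 −0.20, Tead2 −0.11 and Yap1 −0.14, and with the slide row as a block Tead1 −0.0403. For serum, Yap1 gave −0.0047 with normexp, −0.046 with quantile, −0.28 with spike-in and −0.0032 with the slide row, and spike-in gave Tead3 −0.0277 and Amotl2 −0.12. Against no serum, Tead2 gave −0.0165 with quantile, −0.28 with spike-in and −0.11 with median centring, and Yap1 −0.21 with spike-in and −0.0448 with median centring. The replicate block gave Tead1 0.0238 and Ctgf 0.25 there and kept 4, 3 and 2 members called. The numbers are shared, without evidence of pairing in the deviations over all tested probes. Pairing was not tested for single members. With 1 array left out, values that changed sign ranged with cordycepin against serum from −0.13 to 0.29 (Tead1) and −0.37 to 0.12 (Wwtr1), for serum from −0.34 to 0.0784 (Tead1), −0.35 to 0.16 (Tead2) and −0.17 to 0.18 (Yap1), and against no serum from −0.25 to 0.14 (Tead1), −0.16 to 0.35 (Tead2), −0.0142 to 0.34 (Yap1) and −0.68 to 0.49 (Ctgf). The causes were not tested. With 2 or 3 arrays per group, small differences could not be resolved, and Tead4 with cordycepin lay close to background.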
